A study of Mus musculus with 6 samples.

Results

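The neural plate border and crest specifiers described here are 9 transcription factor genes, *Pax3*, *Pax7*, *Tfap2a*, *Snai1*, *Snai2*, *Msx1*, *Msx2*, *Ets1* and *Twist1*, out of 19057 genes with a probe on the array. They were chosen by name, and every probe annotated with one of these symbols was taken, which gave 18 of 45281 probes. Illumina Mouse WG6 v2 arrays were used to read transcript levels in pools of 8 stage-matched whole embryos of the mouse, aged between E8.0 and E8.5 (0 to 4 somites), and each pool had its own array. There were 3 pools of *Zic2* iso/iso embryos and 3 pools of wildtype (+/+) embryos. All were on a C3H/HeH background, of both sexes and from crosses of *Zic2* iso/+ parents. The *iso* allele is a single chemically induced mutation that puts a premature stop codon into the fifth zinc finger of ZIC2. It is present in every cell of the embryo, so that the comparison does not tell a role of *Zic2* in the neural folds from a role in the node or the mesoderm. A single transcript value per pool stands for all tissues of 8 embryos, and fewer cells of a type cannot be told apart from less RNA per cell.

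The neural plate border is the strip of ectoderm between the neural plate and the surface ectoderm. BMP, Wnt and Fgf signals switch on border specifiers there, among them the Pax3/7, Msx and AP-2 factors, and these in turn switch on crest specifiers such as the Snail, Twist and Ets factors, with which neural crest cells leave the epithelium as the folds rise and close. *Zic2* is itself expressed in the dorsal neural folds. Most of these genes are also used elsewhere in the early embryo: *Tfap2a* in surface ectoderm, *Snai1* and *Twist1* in mesoderm, *Msx1* and *Msx2* in extraembryonic and lateral mesoderm, and *Ets1* in endothelium.

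Values are quantile-normalised log2 probe intensities, and differences are *Zic2* iso/iso minus wildtype from limma, with Benjamini-Hochberg adjustment across the 45281 probes. Where a gene has several probes, its level is that of the brightest. A background level of 7.47 on the log2 scale was the 95th percentile of 1621 probes of gene families with no known use in early embryos, such as olfactory receptors, and 10394 genes lay above it. Array medians ran from 154 to 187 on the deposited linear scale. *Zic2*, the mutated gene, was at 7.64, 7.57 and 8.01 in the mutant pools and 8.27, 8.06 and 8.00 in the wildtype pools, a log2 difference of −0.37 with a standard error of 0.11, and the pools overlapped (adjusted p = 0.61 from limma). Its other probe, near the background level, had a difference of 0.12, and since the allele is a point mutation neither probe checks the genotype. In the yolk sac and blood list 9 of 10 markers were above the background level, and in the endothelial list 12 of 14. Markers of these tissues were thus measured in the pools labelled as whole embryo.

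None of the 9 specifiers passed an adjusted p of 0.05, where 20 probes of the whole array (0.0442%) did. The largest differences were those of *Ets1*, 1.28-fold lower in the mutant pools, and *Snai2*, 1.25-fold higher, and *Msx1* was 1.16-fold higher. *Tfap2a*, *Snai1* and *Twist1* differed by 0.06 or less on the log2 scale, and *Pax3*, *Pax7* and *Msx2* did not reach the background level in either genotype. With an unadjusted p under 0.05 there were 3 of 9 (*Ets1*, *Snai2* and *Msx1*), against 6.02% of all probes. All 3 were among the 6 specifiers above the background level, where 11.1% of the 10394 genes had such a p. The median log2 difference of these 6 was 0.03, beside −0.01 for the 10394 genes. Of the 6, 4 had a fitted difference above 0 and 2 below it. The pools of the 2 genotypes stood apart in 3 of the 9 specifiers (*Snai2* higher, *Ets1* and *Pax7* lower), against 10.6% of all probes, and in 2 of the 6 above the background level, against 12.0% of genes above it. With 3 pools against 3, an exact two-sided permutation test cannot go below p = 0.1.

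**Figure D1:**
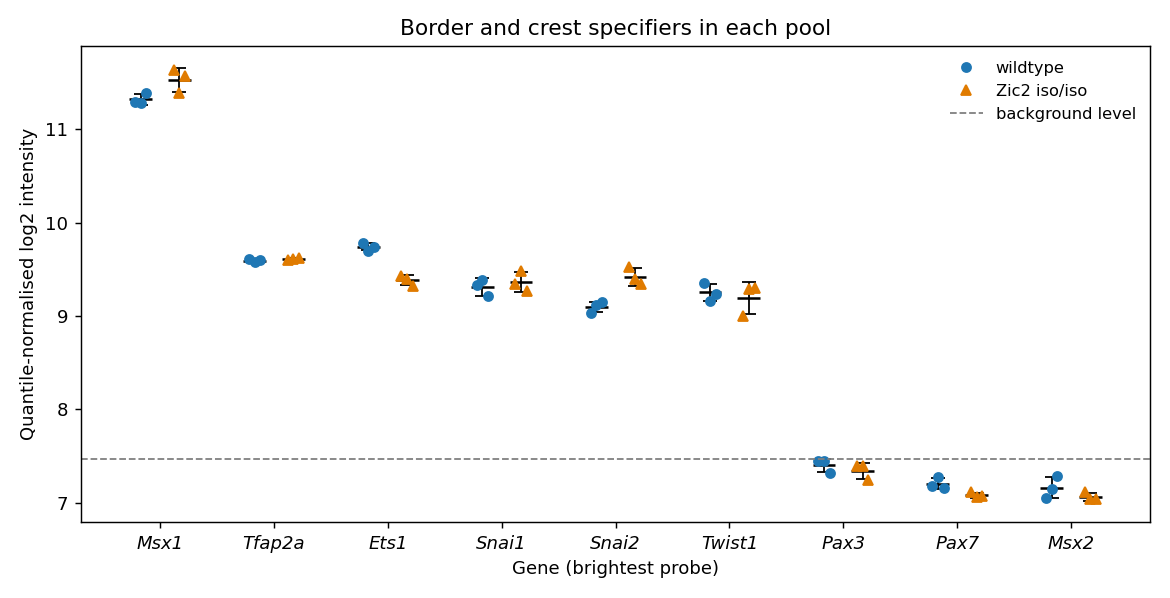
Quantile-normalised log2 intensity (vertical axis) of the brightest probe of each of the 9 genes in every wildtype (circles) and Zic2 iso/iso (triangles) pool. Bars give the mean and SD of the 3 pools of a genotype, and a dashed line marks the background level, 7.47. The pools separate for Ets1 and Snai2, they overlap narrowly for Msx1, and Pax3, Pax7 and Msx2 lie below the line.

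Among the border specifiers, *Msx1*, a homeobox gene that responds to BMP signals, had the brightest probe. It was at 11.64, 11.39 and 11.57 in the mutant pools and at 11.29, 11.28 and 11.39 in the wildtype pools. The lowest mutant pool and the highest wildtype pool had the same value to 2 decimals. The log2 difference was 0.21 (standard error 0.08, 95% interval 0.04 to 0.38) and was not past the threshold (limma, adjusted p = 0.74). A second, dimmer probe of *Msx1* was at 8.69, 8.65 and 8.74 in the mutant pools and at 8.34, 8.53 and 8.46 in the wildtype pools. Here every mutant pool was above every wildtype pool, with a difference of 0.25 (standard error 0.07, adjusted p = 0.55 from limma). Both probes therefore gave a difference of the same sign and of about the same size. They were read on the same 6 arrays and are not independent of each other.

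*Tfap2a*, which encodes the AP-2α factor of the border and the surface ectoderm, was the least variable of the specifiers. Its brightest probe was at 9.60, 9.61 and 9.62 in the mutant pools and 9.61, 9.58 and 9.60 in the wildtype pools. The pools of both genotypes overlapped. The difference was 0.02 with a 95% interval of −0.12 to 0.15, which is 0.92-fold to 1.11-fold. *Tfap2a* has 4 other probes, of which 2 were above the background level (differences of 0.10 and 0.08) and 2 below it (0.02 and 0.05). All 5 differences were above 0, and none passed the test.

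The paired-box genes *Pax3* and *Pax7*, which mark the dorsal neural folds and the border, could not be followed on this array. *Pax3* was at 7.40, 7.39 and 7.25 in the mutant pools and at 7.44, 7.44 and 7.32 in the wildtype pools. *Pax7* was at 7.11, 7.06 and 7.07 in the mutant and 7.18, 7.27 and 7.16 in the wildtype pools. *Msx2*, a homeobox gene closely related to *Msx1*, was at 7.11, 7.04 and 7.05 in the mutant and 7.05, 7.15 and 7.28 in the wildtype pools. Each of these genes has 1 probe, all 18 values lie below the background level of 7.47, and no change in their transcripts could be read. The mutant pools of *Pax7* were below the wildtype pools (difference −0.12, adjusted p = 0.89 from limma), at levels where the probe cannot be told from those of unused gene families.

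The Snail factors repress the adhesion genes of the epithelium that crest cells leave. *Snai2* was at 9.53, 9.40 and 9.34 in the mutant pools and 9.04, 9.11 and 9.15 in the wildtype pools. Every mutant pool was above every wildtype pool (exact two-sided permutation p = 0.1). The log2 difference was 0.32 (standard error 0.07, 95% interval 0.17 to 0.48), which ranked 99 among all probes by p and missed the threshold (limma, adjusted p = 0.26). *Snai1* was at 9.34, 9.48 and 9.27 in the mutant pools and 9.34, 9.39 and 9.21 in the wildtype pools. These pools overlapped, with a difference of 0.05 (95% interval −0.11 to 0.22). A second probe of *Snai1*, below the background level, had a difference of −0.15. Between the genotypes the log2 ratio of *Snai2* to *Snai1* within a pool differed by 0.27. The mutant pools were at 0.19, −0.08 and 0.07 and the wildtype pools at −0.30, −0.27 and −0.06, with an overlap of 1 pool of each genotype (exact two-sided permutation p = 0.2). A difference between the 2 Snail genes in their response was thus not shown.

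*Twist1*, which encodes a basic helix-loop-helix factor of cranial crest and mesoderm, was at 9.001, 9.29 and 9.30 in the mutant pools and at 9.35, 9.16 and 9.24 in the wildtype pools. The lowest value was that of *Zic2* iso/iso replicate 1 and the highest that of wildtype replicate 1, and the groups overlapped. The difference was −0.06 (standard error 0.09, 95% interval −0.25 to 0.14, adjusted p = 0.98 from limma).

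*Ets1* encodes an ETS-domain factor that cranial crest cells and endothelial cells both use. It was at 9.43, 9.40 and 9.32 in the mutant pools and at 9.78, 9.70 and 9.74 in the wildtype pools. All mutant pools were below all wildtype pools, by a gap larger than the range within either genotype (exact two-sided permutation p = 0.1). The log2 difference was −0.36 (standard error 0.06, 95% interval −0.50 to −0.22). It ranked 39 among all probes by p and had the lowest adjusted p of the 9 specifiers, which missed the threshold (limma, adjusted p = 0.13). The deposited linear intensities of this probe were 863, 671 and 564 in the mutant pools and 816, 863 and 814 in the wildtype pools. Before normalization *Zic2* iso/iso replicate 1, the array with the highest median of the 6, was thus level with the wildtype pools. The other 3 probes of *Ets1* were below the background level, at differences of −0.01, 0.08 and 0.01. The probe at 0.08 is annotated to the same transcript as the bright probe. Whether these dim probes detect the gene was not tested. Averaged with them, the difference was −0.07 (adjusted p = 0.94 from limma).

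**Figure D2:**
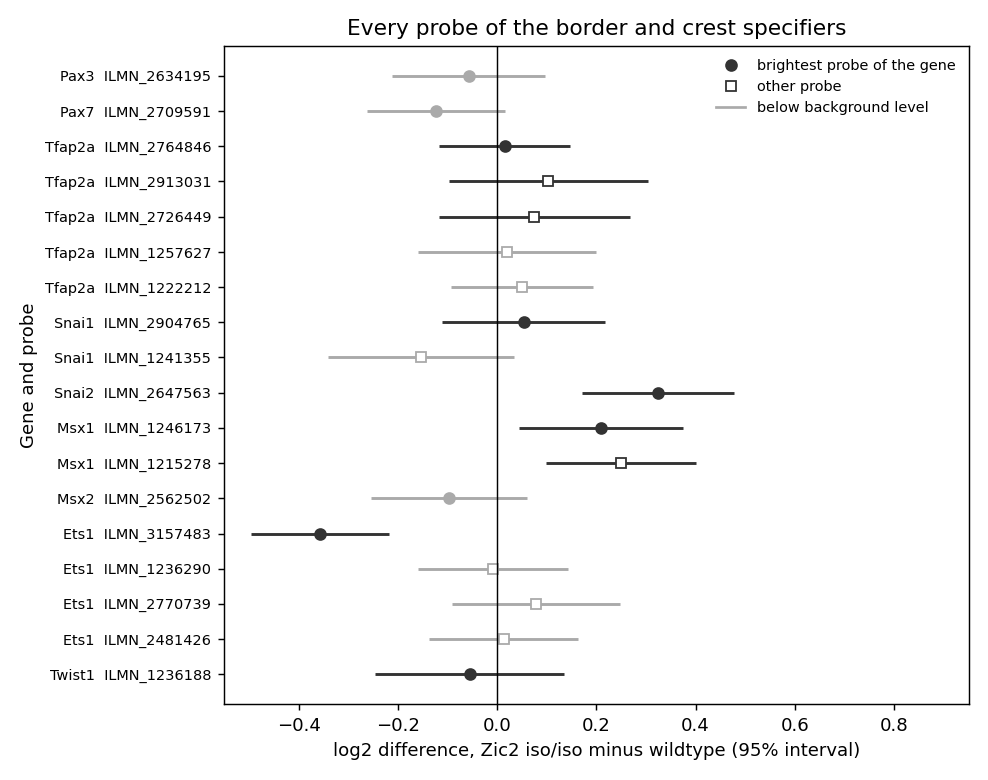
Log2 difference (horizontal axis, Zic2 iso/iso minus wildtype) with its 95% interval for each of the 18 probes of the 9 genes. Filled circles are the brightest probe of a gene, open squares its other probes, and grey marks probes below the background level. The interval lies above 0 for the Snai2 probe and both Msx1 probes and below 0 for 1 of the 4 Ets1 probes.

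RefSeq promoter entries (GRCm38.p6) were found for 6 of the 9 specifiers, with 7 start sites. The 250 bases before each start were searched on both strands for CACCTG, the E-box that Snail proteins bind, and for CCCAGG, a run of letters that is present on one strand in all 3 oligonucleotides tested for ZIC2 binding in the *Nodal* enhancer. In the study's gel shift assay ZIC2 did not bind the oligonucleotide of site ZBS1, which also holds CCCAGG. *Msx1* and *Snai1* are shown because their windows held both runs of letters. The *Msx1* window lies at chr5:37824586-37824835 on the minus strand and the *Snai1* window at chr2:167537945-167538194 on the plus strand. Each is written 5′ to 3′ along its gene and ends at the base before the start, with the matches in capitals.
Msx1: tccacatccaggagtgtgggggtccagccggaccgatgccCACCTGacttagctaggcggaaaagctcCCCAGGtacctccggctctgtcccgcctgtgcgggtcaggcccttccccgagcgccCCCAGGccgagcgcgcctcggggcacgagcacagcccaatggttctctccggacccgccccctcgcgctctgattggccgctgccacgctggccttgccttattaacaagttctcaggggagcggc
Snai1: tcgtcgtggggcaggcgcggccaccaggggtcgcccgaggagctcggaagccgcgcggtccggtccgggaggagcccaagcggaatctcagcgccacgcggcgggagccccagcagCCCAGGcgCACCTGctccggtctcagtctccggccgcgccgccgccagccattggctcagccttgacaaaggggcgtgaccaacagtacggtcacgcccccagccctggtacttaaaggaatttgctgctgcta

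In *Msx1* the E-box begins at −210, counted back from −1 at the base before the start, and CCCAGG at −182 and −126. In *Snai1* CCCAGG begins at −134 and the E-box at −126. No matches overlapped each other. Of the other windows, 1 of the 2 of *Tfap2a* held CCCAGG (beginning at −164, on the strand opposite to the gene), and those of *Twist1*, *Msx2* and *Pax7* held neither run of letters. Over all 32851 promoter windows of the same length 17.2% held the E-box and 29.1% held CCCAGG, so that such matches are common. A match of letters is a description and not a binding site, and *Msx1* and *Snai1*, the 2 genes with both, had differences of 0.21 and 0.05.

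There were 31 other regulators of the border and the crest with a probe (of 32 named). The test called 1 lower in *Zic2* iso/iso embryos, none higher and 30 not at all, against 0.173% of genes above the background level. The gene that fell was *Sox9*, an HMG-box factor of early crest that is also used in the notochord and in cartilage. It was at 10.48, 10.70 and 10.78 in the mutant pools and 11.43, 11.26 and 11.34 in the wildtype pools, a log2 difference of −0.69 (standard error 0.08, adjusted p = 0.0075 from limma), with no overlap. Without wildtype replicate 3 it missed the threshold (limma, adjusted p = 0.056). Of the 31, 24 were above the background level, with a median difference of −0.04, and 7 were below it. Those below were *Foxd3*, a winged-helix crest specifier, *Dlx5*, *Mycn*, *Prdm1*, *Zic1*, *Zic4* and *Zic5*, so that no change could be read for them. Of the 24, 7 had an unadjusted p under 0.05, where 11.1% of all genes above the background level did, and all 7, chosen here after their values were seen, had lower means in the mutant pools. They were *Sox9*, *Sox10* (−0.66), *Zeb1* (−0.42), *Zic2* (−0.37), *Sox5* (−0.30), *Lmx1a* (−0.27) and *Olig3* (−0.23). The pools did not overlap in 4 of them (*Sox9*, *Zeb1*, *Lmx1a* and *Olig3*), all with the mutant pools below, against 12.0% of genes above the background level. *Sox10*, the factor of migrating crest, was at 7.64, 7.93 and 7.45 in the mutant and 8.57, 7.90 and 8.55 in the wildtype pools, and wildtype replicate 2 lay among the mutant pools (standard error 0.16, adjusted p = 0.39 from limma). Among close relatives of the specifiers *Tfap2c* was at −0.02 and *Msx3* at −0.12, and *Zeb2*, the relative of *Zeb1*, was at −0.05.

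There were 22 measured genes of the signals that induce the border (20 of them brighter than background). The test called 1 lower, none higher and 21 not at all, against 0.173% of genes above the background level. *Chrd*, which encodes the BMP antagonist Chordin, fell from 8.72, 8.84 and 8.77 in the wildtype pools to 8.31, 8.19 and 8.27 in the mutant pools, a log2 difference of −0.52 (standard error 0.07, adjusted p = 0.011 from limma). Leaving out *Zic2* iso/iso replicate 2 or 3 or wildtype replicate 2 or 3 ended this call (limma, adjusted p = 0.057 to 0.098). Ligand genes had differences on both sides of 0, none past the test, from 0.19 (*Bmp4*), 0.18 (*Fgf8*), 0.10 (*Wnt1*) and 0.09 (*Wnt3a*) to −0.10 (*Wnt8b*), −0.15 (*Wnt7b*) and −0.30 (*Fgf15*). Of the 20 genes, 5 had an unadjusted p under 0.05, where 11.1% of all genes above the background level did. They were *Chrd*, *Fgf15* and *Wnt7b*, lower in the mutant pools, and *Fgf8* and *Bmp4*, higher. The pools stood apart in 4 of the 20 genes, all with the mutant pools below (*Chrd*, *Fgf15*, *Wnt7b* and *Nog*), against 12.0% of genes above the background level. *Nog* lay near that level, at 7.37, 7.54 and 7.44 in the mutant and 7.61, 7.59 and 7.57 in the wildtype pools. *Axin2*, a target of Wnt signals, was at 0.05, and *Id2* and *Id3*, targets of BMP signals, were at 0.15 and 0.05. The median of the 20 genes was 0.02.

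Of 28 measured genes that act in crest cells or in their departure from the epithelium (23 of them brighter than background), limma called none, and 3 of the 23 had an unadjusted p under 0.05, a share near the 11.1% of all genes above the background level. The largest difference was that of *Cdh1*, which encodes E-cadherin, an epithelial adhesion protein that Snail factors are known to repress. It was at 9.82, 9.72 and 9.65 in the mutant pools and 9.40, 9.51 and 9.39 in the wildtype pools, without overlap. Its difference of 0.29 (standard error 0.07, adjusted p = 0.38 from limma) had the same sign as that of *Snai2*. With the probes of *Cdh1* averaged the difference was 0.14 (adjusted p = 0.83 from limma). *Nrp2*, a guidance receptor of crest cells, was at 0.21 and *Kit*, a receptor of pigment and germ cell lineages, at 0.25. *Pdgfra*, a receptor of cranial crest and mesoderm, was at 0.14 and N-cadherin (*Cdh2*) at 0.03. The pools of *Kit*, *Pdgfra* and *Cdh2* overlapped. Other genes of the list were below 0, among them *Ngfr* (−0.14), *Ednrb* (−0.13) and *Cdh6* (−0.08), also with overlap of the pools. The median of the 23 genes was 0.03.

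**Figure D3:**
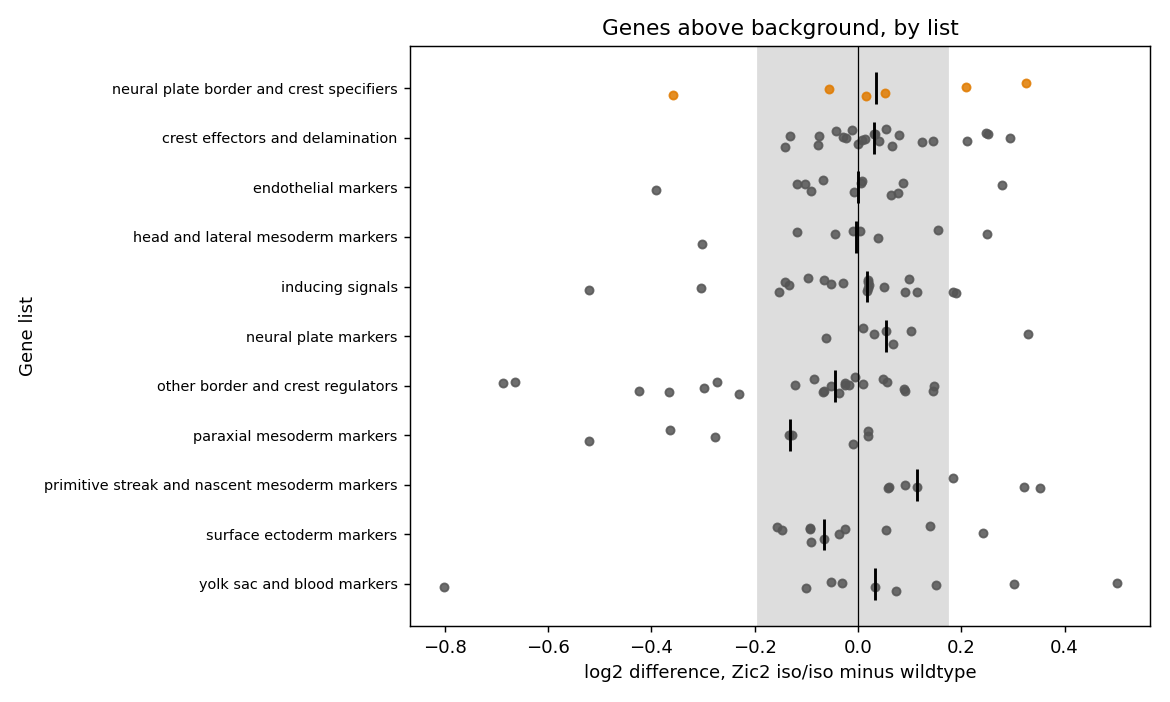
Log2 difference (horizontal axis, Zic2 iso/iso minus wildtype) of each gene above the background level in the specifiers (top row, 6 genes) and in 10 lists of other genes. Points are genes, vertical bars are medians, and the grey band runs from the 5th to the 95th percentile of all 10394 genes above the background level (−0.19 to 0.17). Snai2 and Msx1 lie to the right of the band and Ets1 to the left, and the paraxial mesoderm and primitive streak rows have medians of −0.13 and 0.11.

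Since the specifiers are used in several tissues, the markers of those tissues were read beside them. No marker passed the test in any of the 7 lists, counted over all 45281 probes. Of 14 endothelial markers 12 were above the background level (*Erg* and *Tie1* were not), with a median difference of −0.00061 and a summed log2 level of 12.90 to 13.09 in mutant and 13.01 to 13.06 in wildtype pools. Within it *Emcn* was at −0.39 and *Flt1* at 0.28, without overlap of the pools in either. The value of *Emcn* was −0.20 without *Zic2* iso/iso replicate 3. The part of endothelial cells in the value of *Ets1* was not tested. Of 11 paraxial mesoderm markers 8 were above the background level (*Mesp2*, *Pax1* and *Pax9* were not), with a median of −0.13. Their summed log2 level was 11.89 to 12.07 in mutant and 12.09 to 12.35 in wildtype pools, and the groups did not overlap. The largest difference among them was that of *Tcf15*, a factor of somites, at −0.52 (standard error 0.11, adjusted p = 0.27 from limma). *Foxc2* was at 7.54, 7.66 and 7.68 in mutant and 7.98, 7.95 and 8.05 in wildtype pools (−0.36, adjusted p = 0.14 from limma). In 3 of the 8 (*Tcf15*, *Foxc2* and *Meox1*, all lower) the unadjusted p was under 0.05, against 11.1% of genes above the background level. The pools stood apart in 2 of the 8 (*Tcf15* and *Foxc2*), against 12.0% of those genes. Of 9 markers of the primitive streak and nascent mesoderm 7 were above the background level (*Eomes* and *Wnt3* were not), with a median of 0.11. Their summed level was 13.74 to 13.98 in mutant and 13.55 to 13.68 in wildtype pools, again without overlap. *Mesp1*, a factor of nascent mesoderm, had the largest difference, 0.35 (standard error 0.07, adjusted p = 0.16 from limma). The part of these mesodermal markers in the values of *Snai1*, *Snai2*, *Twist1* and *Msx1* was not tested.

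Of 12 surface ectoderm markers 11 were above the background level, with a median of −0.07 and summed levels of 14.39 to 14.47 in mutant and 14.37 to 14.50 in wildtype pools, beside the difference of 0.02 of *Tfap2a*. Of 10 head and lateral mesoderm markers 8 were above it (*Alx1* and *Hand2* were not), with a median of −0.0030 and summed levels of 11.86 to 11.94 and 11.86 to 11.90. *Tbx1*, a factor of head mesoderm and pharynx, had the largest difference of these, −0.30, without overlap of the pools (adjusted p = 0.43 from limma).

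The mean log2 level of the 6 specifiers above the background level was 9.76, 9.76 and 9.74 in the mutant pools and 9.73, 9.70 and 9.72 in the wildtype pools. All 3 mutant means were above all 3 wildtype means, by a gap smaller than the range within either genotype, and without a test. Each of the 6 pools was the highest of its genotype for at least 1 specifier and the lowest for at least 1.

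**Figure D4:**
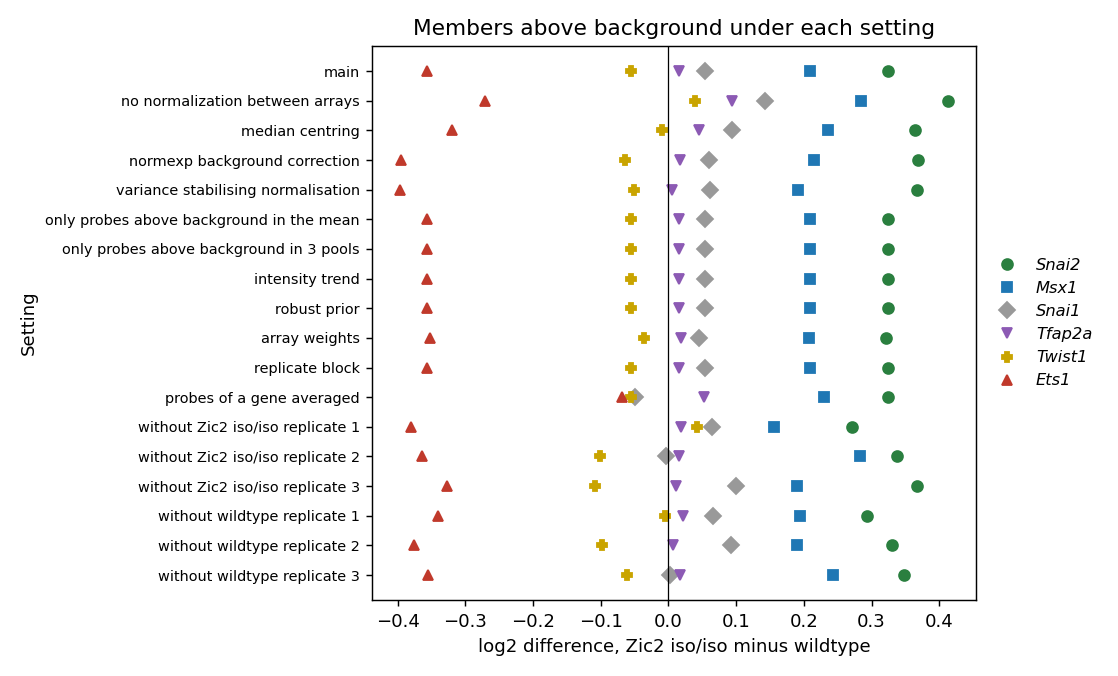
Log2 difference (horizontal axis, Zic2 iso/iso minus wildtype) of the 6 specifiers above the background level under the main setting (top) and 17 other ways to process the values or choose the pools. Snai2 and Msx1 lie above 0 and Ets1 below it in every setting, with Ets1 near 0 where its probes are averaged, and Twist1 and Snai1 lie on both sides of 0. Filters on dim probes, trended and robust priors and the replicate block cannot move a fitted difference.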

How the data were processed

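RNA from 6 pools of whole embryos was hybridised to 1 array each. The authors deposited probe intensities on a linear scale, with a lowest value of 104 to 122 per array. They were taken as values without background subtraction and without the variance stabilising normalisation of the study's methods, which was not tested. The software that made them is not given in the sources used here. After a floor of 1, intensities were taken to log2 and normalised by quantiles. All 45281 probes were fitted in limma 3.58.1 (lmFit and eBayes, R 4.3.3) without covariates, with Benjamini-Hochberg adjustment across all of them and a cutoff of 0.05 for the adjusted p. Intervals are at 95% and come from the moderated fit. Precision is limited by the 3 arrays per genotype. Pools were taken as independent samples, as a figure legend of the study describes them, and its methods name littermates as the controls of mutant embryos.

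Symbols were those of the array annotation, brought up to date with RefSeq genes of GRCm38.p6 (34885 probes with 1 symbol, 18 with several and 10378 with none). Genes of the 10 lists without a matching probe were not analysed here. The members and lists were chosen with earlier results of these data known. Named in the text were the 9 members with each of their probes, list genes past the threshold, the gene above the background level with the largest difference in each list, and *Zic2*. Other list genes were picked for their role or after their values were seen. The summed level of a list is the log2 of the sum of its normalised linear intensities over genes above the background level. The steps were tested on simulated data with changes of known size. That test required no minimum share of calls for small changes. It therefore does not show the power for differences such as those of the specifiers. The alternatives were other normalizations (none, median centring, normexp with an offset of 50, and a rewritten variance stabilising normalisation), filters on dim probes, trended and robust priors, array weights, the replicate block, averaged probes, thresholds of 0.01 and 0.10, and leaving out each pool in turn. Same-numbered mutant and wildtype pools were checked for shared deviations.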

Additional observations from a re-analysis of the deposited data

How the results depend on the processing

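No specifier passed an adjusted p of 0.05 under any of the alternatives run, with lowest adjusted p-values of 0.11 for *Ets1*, 0.24 for *Snai2* and 0.51 for *Msx1*, and thresholds of 0.01 and 0.10 also passed none. *Snai2* (0.27 to 0.41) and *Msx1* (0.16 to 0.28) were above 0 and *Ets1* (−0.40 to −0.07) below 0 in 17 settings, with the smallest value of *Ets1* where its probes were averaged. Among these settings, the filters on dim probes, the trended and robust priors and the replicate block cannot move a fitted difference and only change its test. *Twist1* turned to 0.040 without normalization between arrays, and *Snai1* turned to −0.050 with probes averaged. Without 1 pool *Twist1* ran from −0.11 to 0.043 and *Snai1* from −0.0041 to 0.10, turning without *Zic2* iso/iso replicate 1 and replicate 2, respectively. Without normalization the median difference of the 6 specifiers above the background level was 0.12, where that of the 10394 genes above it was 0.07, and without 1 pool it ran from 0.0059 to 0.056. Without 1 pool the pools did not overlap in 3 to 5 specifiers (5 without *Zic2* iso/iso replicate 1, wildtype replicate 1 or wildtype replicate 3), as fewer pools have less chance to overlap.

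Over the array, 4 probes passed without normalization, 11 with median centring, 31 with an intensity trend, 13 with averaged probes, 34 at a threshold of 0.10 and 14 to 29 without 1 pool. The replicate block gave 17 probes, with adjusted p-values of 0.29 for *Ets1* and 0.52 for *Snai2*. The correlation of the deviations of same-numbered pools was −0.13, −0.02 and −0.12, so that no pairing by number was seen. Whether same-numbered pools shared litters or processing was not tested. *Chrd* did not pass with the block (adjusted p = 0.089 from limma), with median centring (0.30), without normalization, or without *Zic2* iso/iso replicate 2 or 3 or wildtype replicate 2 or 3 (0.057 to 0.098), and *Sox9* did not pass without normalization (0.20) or without wildtype replicate 3 (0.056). Signal over background limits *Pax3*, *Pax7* and *Msx2*, and the folds of dim probes may be understated, since no background was subtracted in the main setting.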

Other observations

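Beside the specifiers, 7 of 10 neural plate markers were above the background level (*Hesx1*, *Pax6* and *Sox1* were not), with a median difference of 0.06 and summed log2 levels of 13.18 to 13.39 in mutant and 13.22 to 13.37 in wildtype pools. *Hes5*, a Notch target of neural progenitors, had the largest difference in this list. It was at 8.28, 8.29 and 7.91 in the mutant pools and 7.86, 7.90 and 7.74 in the wildtype pools, a log2 difference of 0.33 that did not pass the test (standard error 0.10, adjusted p = 0.61 from limma), with every mutant pool above every wildtype pool. With the probes of *Hes5* averaged the difference was 0.21. In the surface ectoderm list the largest difference was that of *Grhl2*, a factor of epithelia and of neural tube closure, at 8.81, 8.87 and 8.84 in mutant and 8.64, 8.54 and 8.61 in wildtype pools, which also did not overlap (0.24, standard error 0.06, adjusted p = 0.49 from limma). With the probes of *Grhl2* averaged it was 0.17.

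In the yolk sac and blood list, where the summed log2 level was 14.54 to 15.18 in mutant and 14.41 to 14.85 in wildtype pools and the median difference was 0.03, *Hba-x*, an embryonic globin gene, had the largest fitted difference, −0.80, with a standard error of 0.52. It was at 10.58, 8.65 and 7.49 in the mutant pools and 9.41, 9.76 and 9.95 in the wildtype pools, so that the mutant pools were spread over a range wider than the difference between the genotypes. Without 1 pool this difference ran from −1.62 (without *Zic2* iso/iso replicate 1) to −0.09 (without *Zic2* iso/iso replicate 3). *Apob*, an apolipoprotein gene of the yolk sac endoderm, was at 11.32, 10.91 and 11.26 in the mutant and 10.64, 10.66 and 10.69 in the wildtype pools, a difference of 0.50 without overlap that did not pass the test (standard error 0.09, adjusted p = 0.15 from limma).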
